A study of Mus musculus and Rattus norvegicus with 28 samples.

Results

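Regions of open chromatin that had a called peak on postnatal day 3 (P3) and at no other time were collected from the ATAC-seq peak lists of perinatal mouse cardiomyocytes. Peaks of the 8 deposited lists that overlapped by at least 1 bp were merged into 113857 regions. A region was kept as P3-only when both P3 libraries had a peak in it and none of the other 6 libraries did, which held for 8328 regions, 7.31% of all merged regions and 16.8% of the 49577 with a peak in both P3 libraries. The regions were chosen by the peak calls themselves, so their strength, width and number are given as a description with no test. For comparison, 7685 regions had a peak in both P3 and both P7 libraries and in none of the other 4, and 5437 had a peak in all 8 lists.

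The cells were left ventricle cardiomyocytes of wild-type C57BL/6 mice of both sexes, isolated by enzyme digestion and pre-plating, a step in which faster adhering cells are left behind on the dish. They were taken at embryonic day 18.5 (E18.5) and at P1, P3 and P7. ATAC-seq and RNA-seq each had 2 biological replicates per time point. ATAC-seq reads out DNA that a transposase can reach, and RNA-seq reads out transcript abundance in the same cell preparation scheme.

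Regulatory DNA that is bound by transcription factors tends to lose its nucleosome and becomes accessible, either next to a gene's start (a promoter) or at a distance (an enhancer). Around birth, mouse cardiomyocytes leave the cell cycle, exchange fetal for adult sarcomere proteins and move from glycolysis to fatty acid oxidation, while fibroblasts and matrix expand around them. AP1 is a dimer of FOS and JUN family proteins that binds enhancers in many stimulated cells, TEAD factors are the DNA partners of YAP in growth control, MEF2 factors drive muscle genes and CTCF binds boundaries of chromatin loops.

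Of the 8328 P3-only regions, 8324 lay on placed chromosomes and their central 201 bp could be read from the mouse genome. The sequences of several of them are printed here, on the forward strand of GRCm38 (mm10), because the values that follow return to them. Capitals mark each match to the motif that is named, and a match is a description of the letters and not evidence that a factor was bound. In 4 of the 10 strongest regions the AP1 word TGACTCA was found, read on either strand, so that it is printed as its reverse complement where the match is on the reverse strand.
Celf2 chr2:7115911-7116111: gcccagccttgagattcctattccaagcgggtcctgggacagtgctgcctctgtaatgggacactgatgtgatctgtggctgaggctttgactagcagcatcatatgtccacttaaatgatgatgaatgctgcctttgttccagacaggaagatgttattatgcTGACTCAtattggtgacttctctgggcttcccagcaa
Dkk2 chr3:132211380-132211580: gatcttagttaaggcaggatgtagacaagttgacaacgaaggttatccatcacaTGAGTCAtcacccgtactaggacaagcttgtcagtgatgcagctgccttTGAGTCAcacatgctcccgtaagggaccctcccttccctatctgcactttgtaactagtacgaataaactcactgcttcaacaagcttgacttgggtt
Il2ra chr2:11655610-11655810: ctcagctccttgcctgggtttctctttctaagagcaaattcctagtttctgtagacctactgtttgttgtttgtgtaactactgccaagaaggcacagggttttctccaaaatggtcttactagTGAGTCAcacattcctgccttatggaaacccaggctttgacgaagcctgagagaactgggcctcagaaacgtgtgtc
Gm48417 chr12:63530850-63531050: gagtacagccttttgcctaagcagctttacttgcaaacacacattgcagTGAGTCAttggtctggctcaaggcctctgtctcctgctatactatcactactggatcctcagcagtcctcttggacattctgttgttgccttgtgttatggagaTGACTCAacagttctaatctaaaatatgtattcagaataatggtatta
The region nearest to Dkk2 and the region nearest to Gm48417 each held 2 matches, and those nearest to Celf2 and Il2ra held 1.

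The next sequences show AP1 matches beside genes whose transcripts changed, and they were chosen for the match. The P3-only regions nearest to Cemip, Hsd11b1, Loxl1 and Pdgfra, whose transcripts also changed, held no AP1 word in their central 201 bp. Aldh1a1 and Nrg1 had a region in an intron, and Fn1 and Wt1 had a region within 2.5 kb of a transcript start.
Aldh1a1 chr19:20484679-20484879: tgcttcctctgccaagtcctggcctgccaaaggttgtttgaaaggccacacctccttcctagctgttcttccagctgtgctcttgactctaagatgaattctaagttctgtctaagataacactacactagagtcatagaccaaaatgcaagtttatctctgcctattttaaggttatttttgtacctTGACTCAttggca
Nrg1 chr8:32908838-32909038: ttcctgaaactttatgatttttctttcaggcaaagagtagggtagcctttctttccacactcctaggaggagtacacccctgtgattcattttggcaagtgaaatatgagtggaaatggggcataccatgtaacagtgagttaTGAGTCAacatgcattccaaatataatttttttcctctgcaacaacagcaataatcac
Fn1 chr1:71589646-71589846: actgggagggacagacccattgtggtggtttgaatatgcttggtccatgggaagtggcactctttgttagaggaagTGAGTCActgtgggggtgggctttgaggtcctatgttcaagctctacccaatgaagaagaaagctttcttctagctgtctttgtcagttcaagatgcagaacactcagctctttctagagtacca
Wt1 chr2:105161015-105161215: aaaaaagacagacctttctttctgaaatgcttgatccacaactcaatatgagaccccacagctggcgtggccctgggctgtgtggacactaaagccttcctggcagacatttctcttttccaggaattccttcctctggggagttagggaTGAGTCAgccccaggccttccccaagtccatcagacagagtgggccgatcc
Tnnt2, which encodes cardiac troponin T and is the marker by which cardiomyocytes are usually recognised, was nearest to 3 P3-only regions. In region 1, before its start, the capitals mark a match to the MEF2 motif, and in regions 2 and 3 they mark the AP1 word.
Tnnt2 region 1 chr1:135834421-135834621: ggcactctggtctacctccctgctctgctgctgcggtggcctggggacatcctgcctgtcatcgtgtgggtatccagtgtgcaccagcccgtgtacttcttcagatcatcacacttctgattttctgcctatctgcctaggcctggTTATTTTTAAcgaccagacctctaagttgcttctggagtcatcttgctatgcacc
Tnnt2 region 2 chr1:135852377-135852577: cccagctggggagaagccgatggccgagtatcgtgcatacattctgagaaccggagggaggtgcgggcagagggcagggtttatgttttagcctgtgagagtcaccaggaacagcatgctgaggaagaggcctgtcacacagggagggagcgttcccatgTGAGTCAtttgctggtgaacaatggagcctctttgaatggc
Tnnt2 region 3 chr1:135844591-135844791: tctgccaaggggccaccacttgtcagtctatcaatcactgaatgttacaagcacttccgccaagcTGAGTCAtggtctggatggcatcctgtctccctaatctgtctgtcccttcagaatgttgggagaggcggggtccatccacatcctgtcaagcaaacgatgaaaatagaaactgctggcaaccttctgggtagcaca
The last pair shows the CTCF motif, in an intron of Zfp423 and upstream of Ppp1r1b.
Zfp423 chr8:87796290-87796490: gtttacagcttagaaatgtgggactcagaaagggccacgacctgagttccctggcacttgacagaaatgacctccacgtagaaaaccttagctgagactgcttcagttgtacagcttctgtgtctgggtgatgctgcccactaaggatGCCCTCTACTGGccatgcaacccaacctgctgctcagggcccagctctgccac
Ppp1r1b chr11:98342748-98342948: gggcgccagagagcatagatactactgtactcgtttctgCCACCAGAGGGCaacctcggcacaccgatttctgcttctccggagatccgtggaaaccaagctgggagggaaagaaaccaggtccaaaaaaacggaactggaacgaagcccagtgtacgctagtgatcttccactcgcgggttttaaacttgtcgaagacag

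The P3 libraries stood apart from the others in the length of their peak lists. The P3 lists held 95257 and 52040 peaks, the P7 lists 49113 and 35898, the P1 lists 29281 and 19753 and the E18.5 lists 13149 and 14910. The read depth of the ATAC-seq libraries is not given in the lists, so list length and time point cannot be told apart. When both P3 lists were shortened to the length of the longest other list, 3528 regions met the rule, and when every list was shortened to the length of the shortest, 517 did. Leaving out a library also moved the count: 18473 regions qualified without P7 replicate 1, and 43164 without P3 replicate 2.

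P3-only regions were narrower and weaker than regions with a peak in more lists. Their median width was 349 bp (25th to 75th percentile 285 to 447), against 577 bp for regions of P3 and P7 only and 915 bp for regions of all 8 lists. It was 462 bp for regions with a peak in both P3 lists and exactly 1 other. Regions of P3 replicate 1 alone had 204 bp, and all merged regions had 322 bp, below the P3-only median. Fold enrichment, the ratio of reads at the summit to the local background that the peak caller computes, had a median of 4.93 in P3 replicate 1 (25th to 75th percentile 4.0 to 6.11, highest 13.6). In P3 replicate 2 the median was 4.80 (4.25 to 5.52, highest 12.01). Regions of P3 and P7 only had medians of 6.97 and 6.36, and regions of all 8 lists 8.62 and 10.02. A fold enrichment above 5 in both P3 libraries was reached by 2512 of the 8328 P3-only regions. It was reached by 6384 of the 12044 regions of both P3 lists and exactly 1 other. Of all 49577 regions with a peak in both P3 lists, 31771 reached it.

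Ranked by the q-value of the peak, P3-only regions filled the middle of the first P3 list and the lower part of the second. Counted from the strongest peak as a percentage of the list, their median rank was 53.3% in replicate 1 and 76.3% in replicate 2. The corresponding medians were 23.9% and 46.5% for regions of P3 and P7 only, and 6.98% and 8.13% for regions of all 8 lists. The best rank of any P3-only region was 4.48% in replicate 1 and 11.6% in replicate 2. Among the strongest 25% of the list were 557 P3-only regions (6.69%) in replicate 1 and 39 (0.468%) in replicate 2, and below the middle of the list were 56.5% and 89.9%. In the weakest 10% of the list lay 468 regions (5.62%) in replicate 1 and 2011 (24.1%) in replicate 2. The lowest −log10 q of a P3-only peak was 1.339 and 1.304, at the limit of the lists.

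**Figure D1:**
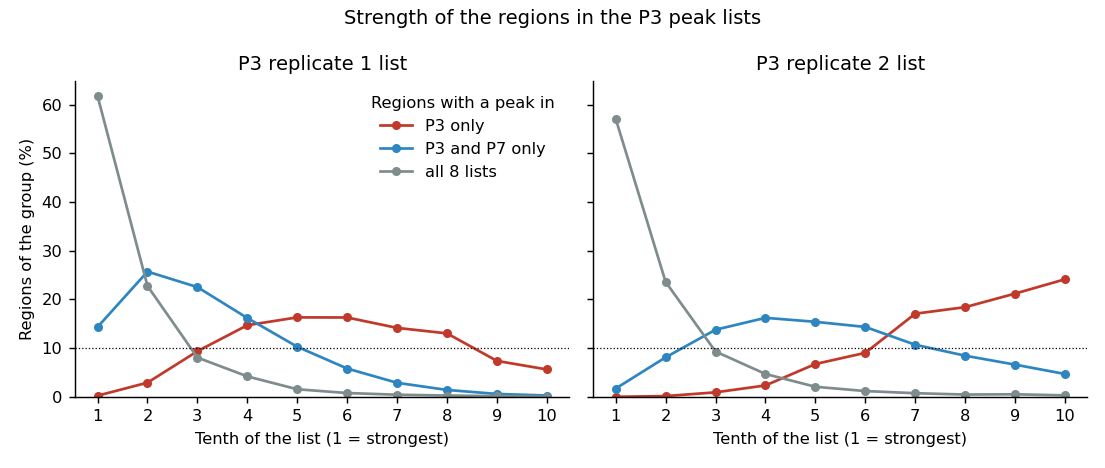
Strength of P3-only regions in both P3 peak lists, beside regions of P3 and P7 only and regions of all 8 lists, as the share of each group in percent (vertical) in each 10% step of the list from the strongest peaks to the weakest (horizontal), with a dotted line at 10%. P3-only regions spread over the middle of the replicate 1 list and rise to 24.1% in the last step of the replicate 2 list.

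By the rule, both P3 peaks of a member lay in the same merged region, with a median width of 349 bp. Their summits were therefore close by construction, and the distance was not measured for other groups of regions. The summits of the 2 peaks were a median of 56 bp apart, and 76.0% were within 100 bp of each other. Over the 8328 regions, fold enrichment in the 2 P3 libraries had a Spearman correlation of 0.439 and rank had a correlation of 0.318. These are descriptions across regions of the same pair of libraries, and regions are not replicates.

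Just outside the rule were 12044 regions that had a peak in both P3 lists and in exactly 1 other. Of these, 10105 had their extra peak in P7 replicate 1 and 1480 in P7 replicate 2, against 327 and 32 in the P1 lists and 45 and 55 in the E18.5 lists. The 10105 regions had median fold enrichments of 6.16 and 5.52 at P3 and of 4.25 at P7, where they ranked at a median of 64.3% of the list. The 1480 regions had medians of 5.31 and 5.10 at P3, near those of the P3-only regions. Outside the rule on the other side, 34514 regions had a peak in P3 replicate 1 alone and 1285 in P3 replicate 2 alone. A region without a listed peak can still hold reads below the limit of the caller, and read coverage at the other times was not analysed here.

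P3-only regions lay mostly away from gene starts. The median distance from a region's midpoint to the nearest transcript start was 10743.5 bp (25th to 75th percentile 3439 to 27127.8), against 6457.5 bp for regions of P3 and P7 only and 111 bp for regions of all 8 lists. Within 2.5 kb of a start were 1723 regions (20.7%), against 34.1% and 83.2%. Another 3841 (46.1%) lay 2.5 to 20 kb away, 1725 (20.7%) 20 to 50 kb away and 1035 (12.4%) farther than that. Upstream of the nearest start lay 3949 (47.4%). Beyond 2.5 kb of any start, 3288 regions (39.5% of all P3-only regions) had their midpoint in an intron, 236 (2.83%) in an exon and 3077 (36.9%) between genes. The groups most like them lay nearly as far out. Regions of both P3 lists and exactly 1 other had a median distance of 9277.5 bp, with 24.1% within 2.5 kb. Those of P3 replicate 1 alone had 9677 bp and 22.7%, and all merged regions 7831 bp and 30.0%.

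**Figure D2:**
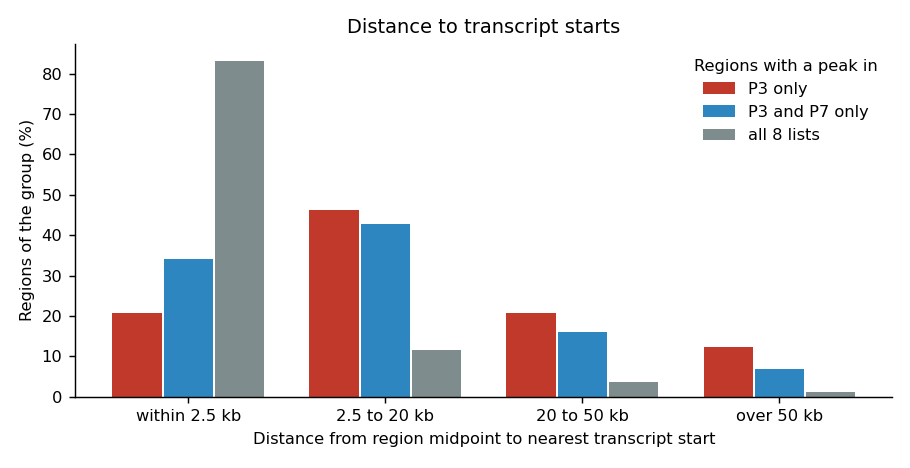
Distance of region midpoints to the nearest transcript start for P3-only regions, regions of P3 and P7 only and regions of all 8 lists, as shares of each group. P3-only regions had 20.7% within 2.5 kb and a median of 10743.5 bp, the farthest of the 3 groups. Regions of both P3 lists and exactly 1 other, which are not drawn, had 24.1% and 9277.5 bp.

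The stronger P3-only regions were farther from starts than the weaker ones. Split into 4 equal groups by mean rank, from strongest to weakest, the median distance was 14176, 11147, 9915 and 8846 bp, and the share within 2.5 kb was 15.9, 20.03, 21.3 and 25.5%. By the rule, P3-only regions overlapped no peak of the other 6 lists. Distances to those peaks were not measured for other groups of regions. The nearest peak of any of the other 6 lists was a median of 8050.5 bp away, and 894 regions (10.7%) had one within 1 kb. The nearest P7 peak was a median of 10184 bp away, the nearest P1 peak 17581.5 bp and the nearest E18.5 peak 39315 bp, an order that follows the lengths of those lists. The nearest other P3-only region was a median of 65143 bp away. Chromosome 2 held the most P3-only regions, 677. As a share of the regions with a peak in both P3 lists, on the autosomes and the X chromosome they ran from 14.1% on chromosome 7 to 22.2% on the X chromosome, where they were 193 of 869.

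Many of the genes with a P3-only region at their start had another accessible region there. Of 1660 genes with a P3-only region within 2.5 kb of a transcript start, 874 (52.7%) also had a region within 2.5 kb with a peak in an E18.5, P1 or P7 list, and 177 (10.7%) had one with a peak in all 8 lists. Among the 784 of these genes whose transcripts were abundant enough to be tested, 646 (82.4%) had a region from another time. For most of the 784, then, the P3-only region was not the sole listed accessible region near a start. Of the 2516 tested genes nearest to any P3-only region, a set that holds the 784, 2200 (87.4%) had a region from another time at a start. The share over all genes tested was not measured.

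The P3-only regions were less rich in G and C than the regions open at all times. The central 201 bp had a mean GC content of 48.8% ± 6.94 (SD, n = 8324 regions), against 44.8% in flanking windows 2 kb away, 52.9% in regions of P3 and P7 only and 63.8% in regions of all 8 lists. Beyond 2.5 kb of a start the means lay closer, at 47.9% for P3-only regions, 49.8% for P3 and P7 regions and 55.0% for regions of all 8 lists. Repeats masked in the genome covered 11.5% of the central bases and 25.8% of the flanking ones.

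The AP1 word was found in 1541 of 8324 P3-only regions, 18.5% (95% Wilson interval 17.7 to 19.4, for the counting of regions only). In the flanking windows it was found in 3.58%. The share was 20.01% (19.1 to 20.9) in regions of P3 and P7 only, 4.98% in regions of all 8 lists, 21.1% in regions of both P3 lists and exactly 1 other, and 15.7% in all merged regions. Beyond 2.5 kb of a start the word was found in 19.9% (18.9 to 20.9) of P3-only regions, 25.3% (24.1 to 26.5) of P3 and P7 regions, 16.8% (14.5 to 19.4) of regions of all 8 lists and 18.3% of all merged regions. There the intervals of P3-only regions and of regions of all 8 lists overlapped, and the difference from P3 and P7 regions was wider than over all regions. Matches gathered at the summit. Per 50-bp bin, 7.86% of P3-only regions had a match within 50 bp of the summit and 0.965% beyond 500 bp, a ratio of 8.14, against 11.8 in P3 and P7 regions and 2.96 in regions of all 8 lists.

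The AP1 share rose with strength. It was 24.7, 18.3, 17.2 and 13.9% from the strongest to the weakest of the 4 groups of P3-only regions. The TEAD word CATTCC followed the same order, with 24.5, 22.5, 19.3 and 16.9%. In all, 20.8% of P3-only regions held the TEAD word, against 10.9% of flanks, 17.3% of P3 and P7 regions and 8.51% of regions of all 8 lists. The share was 22.4% in regions of both P3 lists and exactly 1 other and 17.1% in all merged regions. Beyond 2.5 kb of a start the groups lay closer. There the word was found in 21.9% of P3-only regions and 19.8% of P3 and P7 regions. Regions of all 8 lists had 17.2% (14.8 to 19.8) and all merged regions 19.1%. Near the summit the TEAD word was 2.59 times as frequent as beyond 500 bp, against 2.32 times in P3 and P7 regions and 1.12 times in regions of all 8 lists.

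CTCF matches were few but highly concentrated. They were found in 340 P3-only regions, 4.08% (3.68 to 4.53), against 0.180% of flanks, 2.71% of P3 and P7 regions, 0.333% of regions of all 8 lists and 2.28% of all merged regions. Within 50 bp of the summit they were 45.1 times as frequent per bin as beyond 500 bp, against 33.7 times in P3 and P7 regions and 6.89 times in regions of all 8 lists. The MEF2 motif went the other way. It was found in 202 P3-only regions, 2.43%, below the 3.68% of their flanks, and was 0.622 times as frequent at the summit as beyond 500 bp. That ratio was lower still in P3 and P7 regions (0.507) and in regions of all 8 lists (0.442). The MEF2 motif was found in 1.42% of P3 and P7 regions, in 1.07% of regions of all 8 lists and in 1.98% of all merged regions. Beyond 2.5 kb of a start the order of P3-only regions (2.59%, 2.23 to 3.00) and regions of all 8 lists (3.84%, 2.76 to 5.31) turned round, with intervals that overlapped.

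Of the remaining words, that of RUNX factors, TGTGGT, was found in 18.4% of P3-only regions, in 15.0% of flanks and in 16.0% of all merged regions. The word AGATAA, which GATA factors bind, was found in 10.8% of both P3-only regions and flanks and in 8.62% of all merged regions. For ETS factors, CCGGAA was found in 4.05% and 1.97%, with 5.39% of all merged regions and 16.7% of regions of all 8 lists. Beyond 2.5 kb of a start the ETS word was found in 3.61% of P3-only regions, 3.53% of all merged regions and 5.42% of regions of all 8 lists. The E-box was found in 68.1% of P3-only regions and 66.1% of flanks, with 64.0% of all merged regions, and the SRF CArG box in 1.17% and 1.14%, with 0.915%.

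**Figure D3:**
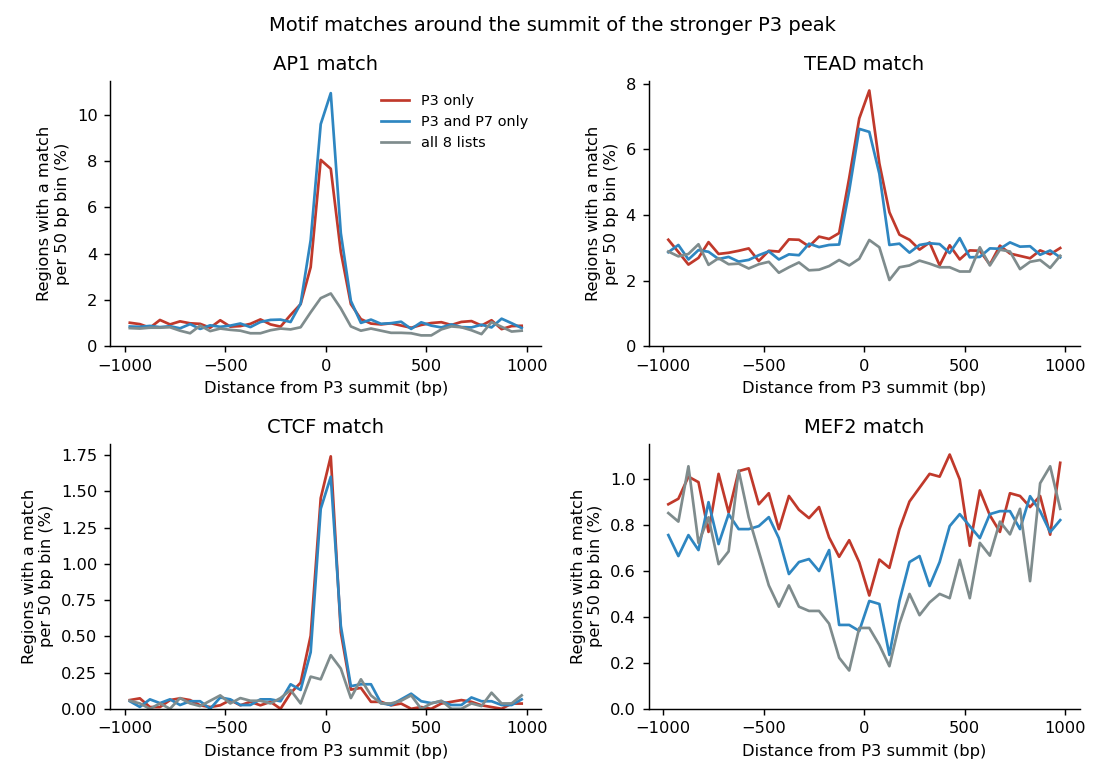
Share of regions with a match to AP1, TEAD, CTCF or MEF2 in each 50-bp bin, by distance from the summit of the stronger P3 peak, for P3-only regions, regions of P3 and P7 only and regions of all 8 lists. AP1, TEAD and CTCF matches peak at the summit of P3-only regions and MEF2 matches dip there, at 0.565% within 50 bp against 0.908% beyond 500 bp. MEF2 matches also dip in regions of P3 and P7 only (0.404% against 0.797%) and in regions of all 8 lists (0.351% against 0.795%).

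The 10 P3-only regions with the best mean rank were distal, 12067 bp or more from a start. An intronic region nearest to Nedd9, a focal adhesion scaffold, at chr13:41330805-41331408, had fold enrichments of 6.98 and 10.01. The region at chr2:7115817-7116205, in an intron, nearest to the RNA-binding protein gene Celf2 and printed with its AP1 match, had 10.1 and 11.05. Dkk2, which encodes a secreted Wnt modulator, was nearest to the region at chr3:132211278-132211682 with 11.7 and 9.77, at a distance of 126188 bp. The highest fold enrichment of the 10 in P3 replicate 1, 13.0, was that of the region nearest to Gm48417, with 8.92 in replicate 2.

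None of the genes nearest to these 10 regions was called changed between E18.5 and P3. Levels are given as FPKM (fragments mapped to a gene, scaled by its length and by the size of the library). Celf2 had 5.52 and 4.8 at E18.5, 6.35 and 7.73 on P1, 7.65 and 7.53 on P3 and 8.58 and 11.7 on P7, a log2 difference between P3 and E18.5 of 0.48 ± 0.18 (SE) with an adjusted p of 0.0596. Nedd9 differed by 0.01 ± 0.19 and Dkk2 by 0.46 ± 0.26. A further 6 genes, Gm26178, Gm23899, BC022960, Il2ra, Gm48417 and Neb, were too low to be tested. Il2ra, a receptor chain of lymphocytes, was at 0 or below 0.0205 FPKM in 7 libraries and at 0.492 in E18.5 replicate 2.

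Nearest genes were then followed through RNA-seq. The 8328 regions had 6679 nearest genes, of which 3404 (51.0%) were protein coding. A level of at least 1 FPKM in at least 2 libraries, the condition for testing, was reached by 2516 of them (37.7%), against 13979 of all 55450 genes (25.2%). Genes were called changed at an adjusted p under 0.05 with a log2 difference above 1 in size, by limma on log2(FPKM + 1) over all genes tested. The adjustment ran over all 13979 genes.

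Marker levels of several cell types moved with time and are given here beside the differences between time points. Summed over 16 cardiomyocyte markers, FPKM was 31543 and 40828 at E18.5, 16190 and 25581 on P1, 10720 and 8774 on P3 and 2852 and 1311 on P7. Summed over 14 fibroblast markers it was 552 and 545, 1680 and 1965, 2182 and 2304, and 3771 and 4622. None of the markers of either list was at 0. Smooth muscle and pericyte markers summed to 431 to 559.6 at E18.5, 1139 to 1302 at P3 and 1671 to 1879 at P7, endothelial markers to 339 to 786 throughout, and leukocyte markers to 33.8 to 69.3. In bulk samples fewer cells of a type and less RNA per cell cannot be told apart, and the same holds for accessible regions of a cell type. Whether P3-only regions came from cardiomyocytes or from other cells in the preparation was not tested.

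Between E18.5 and P3, 481 of the 2516 nearest genes tested rose and 202 fell, 27.1% in all, against a background of 21.9% of all genes tested (13% higher, 8.88% lower). Their median log2 difference was 0.26, against 0.16 over all genes tested. Genes nearest to regions of P3 and P7 only had 27.6% called and a median of 0.32, and genes nearest to regions of all 8 lists 17.3% and 0.14. For the 784 genes with a P3-only region within 2.5 kb, 146 rose and 59 fell (26.1%). The balance of directions depended on the scaling. With TPM 734 nearest genes rose and 165 fell (median log2 difference 0.52), and with median-of-ratios size factors 377 rose and 257 fell (median 0.09). Of all genes called, 59.4% were higher with FPKM, 74.4% with TPM and 45.7% with median-of-ratios size factors, with medians of all genes of 0.16, 0.41 and −0.02.

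Between P1 and P3, the interval that the rule itself sets apart, 1 nearest gene passed, against a background of 0.0143% (2 genes of 13979). At an unadjusted p under 0.05, 371 of 2516 nearest genes (14.7%) differed, against 11.3% of all genes tested. This call did not hold without a filter on low values, with TPM or with replicate number as a block, where no nearest gene passed. Leaving out 1 library at a time gave 0 to 7 genes, with 7 without P1 replicate 1 and 0 without any of the other 7 libraries.

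Between P3 and P7, 43 nearest genes rose and 72 fell, 4.57% of those tested, against a background of 3.55% (1.35% higher, 2.2% lower). The medians were −0.03 for nearest genes and −0.04 for all. These counts depended on single libraries. Only 4 genes passed without P3 replicate 1, 4 without P3 replicate 2 and 17 without P7 replicate 2. The shares of nearest genes called were then 0.159, 0.159 and 0.676%, below the 0.165, 0.186 and 0.758% of all genes tested.

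A level at P3 set apart from all other times, the pattern by which the regions were chosen, was looked for among nearest genes. A call against the mean of the other times does not require that pattern. A low or high level at E18.5 alone can give such a call. Hsd11b1, Loxl1, Pdgfra and Aldh1a1 were called higher at P3 although their P7 libraries lay above those of P3. Against the mean of E18.5, P1 and P7, 44 nearest genes were higher at P3 (1.75%) and 9 lower (0.358%), 2.11% of those tested, against a background of 1.55% (1.02% higher, 0.529% lower). Without P3 replicate 1 the count was 4 (0.159%, against 0.229% of all genes tested) and without P3 replicate 2 it was 2 (0.0795% against 0.0858%), so the shares of nearest genes were then the lower ones. Both P3 libraries lay above all 6 others for 97 nearest genes (3.86%), against a background of 3.71%, and below all 6 for 34 (1.35%), against 1.52%. The time point with the highest mean was P3 for 18.8% of nearest genes and for 18.8% of all genes tested. It was P7 for 34.4% against 31.4%, P1 for 19.4% against 17.8% and E18.5 for 27.4% against 32.0%.

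**Figure D4:**
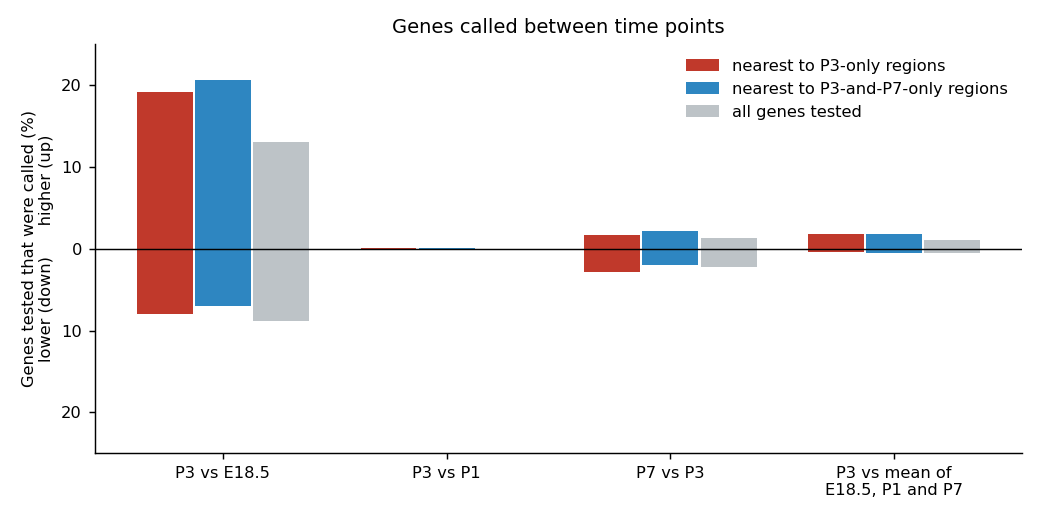
Share of tested genes called higher (bars up) or lower (bars down) in each of the 4 comparisons, in percent, for genes nearest to P3-only regions, genes nearest to regions of P3 and P7 only and all genes tested. Nearest genes had 27.1% called between E18.5 and P3 against 21.9% of all genes, and 2.11% against 1.55% for P3 against the mean of the other times.

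In FPKM, the median level of nearest genes changed chiefly between E18.5 and P1. Over all genes tested that step depended on the scaling. Their median log2 difference from E18.5 to P1 was 0.15 with FPKM, 0.38 with TPM and −0.01 with median-of-ratios size factors. The median FPKM of the 2516 genes was 7.04 and 6.12 at E18.5, 8.47 and 8.64 on P1, 8.33 and 8.74 on P3 and 8.55 and 8.43 on P7. Over all genes tested it was 7.48 and 6.92, 8.30 and 8.54, 8.25 and 8.61, and 8.10 and 7.99. Among genes nearest to a region with an AP1 match, 98 of 503 tested rose and 51 fell between E18.5 and P3 (29.6%), and 27.2% of those nearest to a region without a match were called. Of all genes tested, 21.9% were called (13% higher, 8.88% lower). A gene nearest to regions of both kinds was counted in both sets.

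Most nearest genes had a single P3-only region. There were 5426 genes with 1, 964 with 2 and 289 with 3 or more, and the genes with more regions were longer, with median spans of 10.2, 27.9 and 107 kb. Between E18.5 and P3, 25.9, 32.1 and 30.7% of those tested were called, with median log2 differences of 0.25, 0.30 and 0.43. Rora, a nuclear receptor gene that spans 734 kb, had the most with 9, followed by Glis3 and Dlc1 with 7 each and Zfp423 and Filip1l with 6 each. Filip1l rose from 22.7 and 15.4 FPKM at E18.5 to 49.3 and 65.8 at P3, with 50.9 and 39.7 at P1 and 59.1 and 66.5 at P7, a log2 difference of 1.55 ± 0.22 (adjusted p = 0.00084). Dlc1 had a log2 difference of −0.51 ± 0.15, within the fold limit. The zinc finger gene Glis3 stood at 0.412 and 0.21 FPKM at E18.5 and at 1.75 and 1.2 at P3, a difference of 0.91 ± 0.18 that also missed the fold limit, although it passed with a pseudocount of 0.1 (1.96), with TPM (1.42), without E18.5 replicate 1 (1.02) and without P3 replicate 2 (1.07). Rora differed by −0.11 ± 0.29, and Zfp423, a zinc finger regulator of mesenchymal cells, was not tested.

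Among genes with a P3-only region within 20 kb of a start, the 5 largest rises from E18.5 were in genes of hyaluronan turnover, steroid metabolism, matrix crosslinking, growth factor signalling and retinoic acid synthesis. Cemip, which encodes a hyaluronan-degrading protein, was at 0.703 and 0.352 FPKM at E18.5 and at 24.3 and 21.1 on P1, 26.4 and 25.1 on P3 and 22.5 and 17.7 on P7. Its rise from E18.5 to P3 was 4.14 ± 0.18 (adjusted p = 8.9e-06). Hsd11b1, the enzyme that regenerates active glucocorticoid, went from 0.169 and 1.73 through 16.2 and 8.6 to 30.9 and 29.6 and then 52.9 and 64.1, a rise of 4.13 ± 0.40. Its P3-only region lay 255 bp before a start. Loxl1, a lysyl oxidase family enzyme, went from 9.1 and 9.26 through 90.3 and 63.5 to 139 and 157 and then 229 and 259, a rise of 3.87 ± 0.17. Pdgfra, a growth factor receptor and fibroblast marker, was at 1.4 and 1.65 at E18.5, 32.4 and 33.6 on P1, 33.9 and 37.3 on P3 and 47 and 51.9 on P7, a rise of 3.86 ± 0.13. Aldh1a1, a retinaldehyde dehydrogenase, was at 1.27 and 2.16, 52.7 and 36.2, 41.1 and 34.6, and 55.2 and 47, a rise of 3.85 ± 0.23. Groups of E18.5 and P3 that did not overlap were a condition for naming these genes. In all 5 genes the P1 libraries already lay above those of E18.5. In Hsd11b1, Loxl1, Pdgfra and Aldh1a1 the P7 libraries lay above those of P3.

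The 5 largest falls under the same rule were of other kinds, among them an immediate early gene, a chemokine and a fetal sarcomere gene. Fos, a subunit of AP1 and an immediate early gene, was at 160.3 and 182 FPKM at E18.5, 4.81 and 10.4 on P1, 5.22 and 6.95 on P3 and 7.61 and 9.56 on P7, and fell by 4.61 ± 0.30 on the log2 scale (adjusted p = 3.27e-05). Its P3-only region was 17325 bp after a start, and 4 regions of all 8 lists were also nearest to Fos. Cxcl10, an interferon-induced chemokine, was at 195 and 172 at E18.5, 6.28 and 13.7 on P1, 7.95 and 6.08 on P3 and 104 and 219 on P7. It fell by 4.53 ± 0.39 to P3 and then rose by 4.26 ± 0.39 to P7 (adjusted p = 0.00397). Ppp1r1b, a phosphatase inhibitor whose region upstream held a CTCF match, was at 22.9 and 31.2 at E18.5, 1.35 and 2.66 on P1, 0.273 and 0.378 on P3 and 0 and 0.0834 on P7, and fell by 4.39 ± 0.24. Tnni1, the troponin I of slow skeletal and fetal cardiac muscle, went from 1456 and 1832 through 251 and 379.5 to 111 and 83.9 and then to 28.5 and 12.7. Its fall of 4.07 ± 0.35 to P3 was followed by one of 2.28 ± 0.35 to P7 (adjusted p = 0.0133), a second call that was lost without P3 replicate 1, P3 replicate 2 or P7 replicate 2 (adjusted p up to 0.097). Cabcoco1 was at 12.2 and 17.5 at E18.5, 0.887 and 0.86 at P3, and fell by 3.06 ± 0.22. For Fos and Cxcl10 the P1 and P3 ranges overlapped.

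A few nearest genes had P3 libraries beyond those of every other time and also passed against the mean of those times, although with 1 P3 library left out most of these calls were lost. The largest rises were in Cemip, at 1.56 ± 0.15 (adjusted p = 0.00491), Nrg1 and Heg1. None of these was called between P1 and P3. Their log2 differences there were 0.18 ± 0.18, 0.41 ± 0.30 and 1.26 ± 0.39 (adjusted p = 0.804, 0.686 and 0.303). From P3 to P7 Cemip differed by −0.35 ± 0.18 (adjusted p = 0.354), so among single times it was set apart from E18.5 only. Nrg1, which encodes the growth factor neuregulin 1 that acts on cardiomyocyte ERBB receptors, was at 1.6 and 1.22 FPKM at E18.5, 20.5 and 14.7 on P1, 22.7 and 24.2 on P3 and 11 and 5.22 on P7. It was higher at P3 than at the mean of the other times by 1.75 ± 0.24 (adjusted p = 0.0108) and lower at P7 than at P3 by a log2 difference of −1.50 ± 0.30. Its region, in an intron 24909 bp before a start, held AP1 and TEAD matches. Without P3 replicate 1 or without P3 replicate 2 neither Nrg1 nor Cemip passed against the mean (adjusted p up to 0.118 and 0.0724), and the Nrg1 difference between P3 and P7 was also lost without P7 replicate 2, E18.5 replicate 1 or E18.5 replicate 2. Heg1, an endothelial receptor needed for heart and vessel growth, was at 4.12 and 3.04, 12.9 and 11.8, 51.8 and 18.4, and 17.4 and 15.1, with P3 replicate 1 far above replicate 2, and was higher at P3 by 1.66 ± 0.32 (adjusted p = 0.0256). It had 3 P3-only regions, the closest 738 bp after a start. Without P3 replicate 1 the Heg1 difference was 0.94, and the call was also lost without E18.5 replicate 2 or P7 replicate 2. Stc2, a secreted glycoprotein, was the only gene of the 9 whose P3 libraries lay below all others, at 17.6 and 6.45, 2.46 and 3.98, 2.03 and 2.23, and 7.68 and 10.1, with a difference of −1.32 ± 0.32 (adjusted p = 0.0497) that was lost without P1 replicate 2 or either library of P3 or P7.

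Gene groups show where P3-only regions lay among known functions. Of all genes tested, 17.998% were nearest to a P3-only region, a share beside which the counts of each group are to be read. Regions of P3 and P7 only were nearest to 3005 of the 13979 genes tested. Among markers they were nearest to 0 cardiomyocyte, 6 fibroblast, 4 endothelial and 4 smooth muscle and pericyte genes. They were nearest to 1 leukocyte, 2 epicardial and 1 neural marker. In the AP1, MEF2, YAP and TEAD, TGF beta and integrin groups the counts were 6, 4, 5, 8 and 11. In the fatty acid oxidation and glycolysis groups they were 3 each. Among collagens and matrix proteins 11 of 20 genes were nearest to a P3-only region, and 11 of 20 were also nearest to a region of P3 and P7 only. Of the 11 with a P3-only region, 10 rose from E18.5 to P3 and none fell, against a background of 13% called higher. Over the whole list 15 rose and 1 fell, and its median log2 difference was 1.34, against 0.16 for all genes tested. Col8a1, a short-chain collagen, was at 0.56 and 0.177 FPKM at E18.5, 39.2 and 33.3 on P1, 39 and 43.5 on P3 and 54.5 and 70.2 on P7, a rise of 4.96 ± 0.19 (adjusted p = 7.3e-06). Bgn, the proteoglycan biglycan, went from 65.9 and 65.1 through 428 and 374 to 643 and 832 and then 1065 and 1349.9, and its region lay 33 bp after a start. Tnc, the matrix protein tenascin C, was at 11 and 3.41 at E18.5 and 59.1 and 76.1 at P3, a rise of 3.23 ± 0.39. Lox, the lysyl oxidase that crosslinks collagen, had 2 regions and a log2 difference of 3.17. Col15a1 had 3 regions and a difference of 0.56 that did not pass (adjusted p = 0.112). The rise of this group went with that of the fibroblast marker sum, and the part of cell composition in it was not tested.

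Fibroblast markers had a P3-only region nearest to 8 of 14, of which 4 rose and none fell (whole list 9 and 0, median 2.35). The 4 were Pdgfra, Fn1, Thy1 and Dcn. Fn1, fibronectin, was at 84.8 and 81.5 FPKM at E18.5, 455 and 528 on P1, 554 and 661 on P3 and 749 and 869 on P7, a rise of 2.85 ± 0.14, and its region with an AP1 match lay 1325 bp after a start. Thy1, a surface glycoprotein, was at 4.5 and 14.9, 62 and 46.9, 59.7 and 67.5, and 56.5 and 53.3, a rise of 2.78 ± 0.41. It had 2 regions, and the stronger lay 142 bp before a start, with fold enrichments of 5.60 and 6.67. Dcn, the proteoglycan decorin, was at 85.5 and 84.5 at E18.5 and 489 and 481 at P3, a rise of 2.5 ± 0.10. Col3a1, Postn, Dpt and Mfap5 had log2 differences between −0.38 and 0.39 and did not pass.

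Cardiomyocyte markers had a region nearest to 2 of 16, Tnnt2 and Actn2, and both fell (whole list 13 fell and none rose, median −1.73). Tnnt2 was at 6141 and 7172 FPKM at E18.5, 3662 and 5428 on P1, 2678 and 2299 on P3 and 710.1 and 329.8 on P7. It fell by 1.42 ± 0.34 to P3 (adjusted p = 0.00963) and by 2.36 ± 0.34 from P3 to P7 (adjusted p = 0.0117). The first call was lost without E18.5 replicate 2 or P3 replicate 2 (−1.31 in each), and the second without either P3 library (adjusted p up to 0.0844). Its region 1 was 1833 bp before a start with a MEF2 match, and regions 2 and 3, with AP1 matches, were 3027 and 3816 bp after a start. Region 2 was the strongest of the 3, with fold enrichments of 4.87 and 6.45. Actn2, the Z-disc protein alpha-actinin 2, was at 542 and 752 at E18.5, 266 and 451 on P1, 154 and 142 on P3 and 38.6 and 14.6 on P7, and fell by 2.1 ± 0.42 to P3. At both genes, P3-only regions stood beside transcripts that fell.

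**Figure D5:**
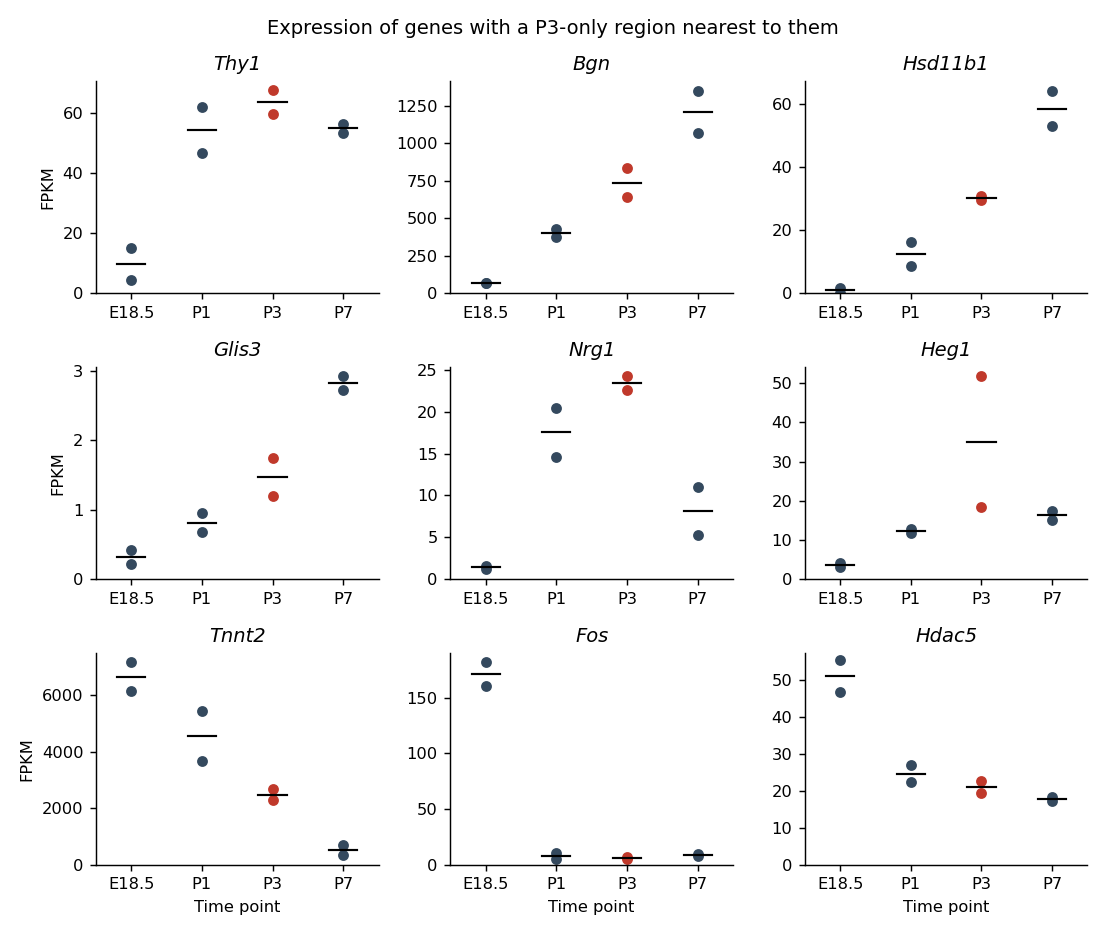
FPKM (vertical) at each time point (horizontal) for 9 genes nearest to P3-only regions, with a point for each of the 2 libraries, P3 in red, and a bar at their mean. Thy1, Bgn, Hsd11b1 and Glis3 lie lowest at E18.5, Nrg1 and Heg1 are highest at P3, and Tnnt2, Fos and Hdac5 are highest at E18.5.

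Markers of other cells came next. Among endothelial markers 4 of 12 had one, and 1 of them, Emcn, rose (whole list 3 rose and 2 fell, median 0.30). Emcn, a sialoglycoprotein of venous and capillary endothelium, had 3 regions and was at 39.9 and 27.6 FPKM at E18.5 and 106 and 98.4 at P3, a rise of 1.59 ± 0.24. Pecam1, the standard endothelial marker, was at 77.8 and 41.9 at E18.5, 43.6 and 37.9 on P1, 56.6 and 62.9 on P3 and 55.6 and 47.8 on P7, with overlapping groups and a difference of 0.06 ± 0.26. Smooth muscle and pericyte markers had 4 of 10 (whole list 2 rose and 3 fell, median 0.64). Pdgfrb rose from 4.92 and 3.15 at E18.5 to 36.9 and 48.1 at P3, by 3.12 ± 0.26, while Rgs5, a pericyte regulator of G protein signalling, was at 9.21 and 7.38 and then 1.93 and 2.45, a log2 difference of −1.54 ± 0.22.

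Epicardial and mesothelial markers had 2 of 8, and both rose (whole list 3 rose and 1 fell, median 0.42). Lrrn4 was at 4.25 and 3.7 FPKM at E18.5, 63.6 and 80 on P1, 56 and 40.6 on P3 and 51.2 and 31.3 on P7, a rise of 3.29 ± 0.25. Wt1, the epicardial transcription factor, was at 4.56 and 6.35 at E18.5 and 17.4 and 9.34 at P3, a rise of 1.11 ± 0.32 (adjusted p = 0.0223) that was not called without P3 replicate 1 (0.69) or E18.5 replicate 1 (0.91), nor with size factors (0.92). Leukocyte markers had 3 of 12. Lyve1, a hyaluronan receptor of lymphatic vessels and resident macrophages, was at 7.4 and 5.29 at E18.5 and 1.27 and 1.42 at P3, a log2 difference of −1.63 ± 0.20, Mrc1 did not pass and Ptprc was not tested (whole list 3 rose and 2 fell of 10 tested, median 0.05). No Schwann or neural marker of 6 had a region, and the 1 tested rose.

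Signalling and transcription factor groups mostly did not pass at genes with a region. In the AP1 family, 2 of 14 genes had a region, Fos, which fell, and Batf3, which did not pass with 0.35. Over the whole list 7 fell and none rose, with a median of −0.98. In the group of MEF2 factors and class IIa histone deacetylases, 3 of 8 had one. Hdac5, a repressor of MEF2, was at 46.9 and 55.6 FPKM at E18.5, 22.4 and 26.9 on P1, 19.5 and 22.7 on P3 and 18.5 and 17.2 on P7, and fell by 1.24 ± 0.15 (adjusted p = 0.000436). Mef2c had a log2 difference of −0.81, inside the fold limit, and Hdac4 one of 0.35 (whole list 2 fell, none rose, median −0.72). Of YAP, TEAD and their targets 4 of 12 had a region, Tead1, Ccn1, Ankrd1 and Vgll4, with differences of −0.21 to 0.81, and no gene of the whole list was called (median 0.32).

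Of 21 TGF beta ligands, receptors and SMADs, 7 had a region and 2 of these rose (whole list 7 rose and 1 fell, median 0.35). Smad6, an inhibitory SMAD, was at 10 and 7.52 FPKM at E18.5 and 52.1 and 25.9 at P3, a rise of 1.96 ± 0.32. Bmp6, a ligand of the family, was at 13.6 and 7.48 and then 32.2 and 35.6, a rise of 1.65 ± 0.25. Of 20 integrins and focal adhesion proteins 8 had a region, and 1 of these rose and 1 fell (whole list 8 and 1, median 0.84). Itga8 was at 0.793 and 0.885 at E18.5 and 2.68 and 3.62 at P3, a rise of 1.16 ± 0.22 that missed the fold limit without P3 replicate 2. Itga2, a collagen receptor chain, was at 4.03 and 1.22 and then 0.605 and 0.733, a log2 difference of −1.001 ± 0.34 at the limit of the rule (adjusted p = 0.0402). Leaving out any library of P1 or P3, or E18.5 replicate 1 (−0.41), ended that call.

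The last groups were those of metabolism and the cell cycle. None of 16 DNA replication and mitosis genes was nearest to a P3-only region, and none was nearest to a region of P3 and P7 only. Of the 16, 8 were nearest to a region of all 8 lists. From E18.5 to P3, 5 of the 16 rose and none fell (median 0.49). Of 16 fatty acid oxidation genes 3 had a region and 2 of these fell (whole list 11 fell and none rose, median −1.50). Acsl1, which activates long-chain fatty acids, was at 93.6 and 93.6 FPKM at E18.5, 17.3 and 22.6 on P1, 13.6 and 16.9 on P3 and 11.8 and 4.78 on P7, and fell by 2.55 ± 0.33. Ppargc1a, a coactivator of mitochondrial genes, was at 10.3 and 7.91 at E18.5, 4.16 and 7.19 on P1, 2.81 and 3.61 on P3 and 0.666 and 0.224 on P7, and fell by 1.26 ± 0.27 to P3 (adjusted p = 0.00574). Of 16 glycolysis genes 3 had a region, Hk2, Pgk1 and Eno1, and none of these was called (whole list 5 fell and none rose, median −0.55). In both metabolic groups the 3 of 16 was near the share of all genes tested. These falls went with the cardiomyocyte marker sum, and the part of cell composition in them was not tested.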

How the data were processed

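Per the labels and the study's methods, left ventricle cardiomyocytes of wild-type mice were profiled by ATAC-seq and RNA-seq at 4 time points with 2 biological replicates each. For ATAC-seq, the authors trimmed reads with cutadapt, aligned them to mm10 with Bowtie2, removed duplicates (Picard) and called peaks in each library with MACS2. The deposited lists give a score, the fold enrichment (a ratio over the local background) and the −log10 p and −log10 q of each peak as MACS2 computed them. For RNA-seq, the authors mapped reads with HISAT2 2.1.0 and estimated FPKM, TPM and read coverage with StringTie 1.3.5 on known transcripts, as deposited. Tool names and versions are those of the submitters' processing notes. These values are not counts, so limma 3.58.1 (R 4.3.3) was used in place of a count test.

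Peaks of the 8 lists were merged (overlap 1 bp) in Python 3.11.15 with pandas 2.3.3 and numpy 2.4.6, and the merge gave the same regions as bedtools 2.31.1. Ranks followed −log10 q. Distances ran from the region midpoint to the nearest transcript start of the deposited annotation. Motifs were searched on both strands in the 201 bp around the midpoint and in windows 2 kb away. The words searched were TGACTCA (AP1), CATTCC (TEAD) and those of RUNX, GATA and ETS factors given in the text. The E-box was CANNTG. The CRE word TGACGTCA and the spaced NFI motif were found in 0.457% and 0.0481% of P3-only regions and in 0.493% and 0.037% of all merged regions. MEF2, SRF and CTCF motifs are named only. The ETS and TEAD words can share bases.

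Transcript FPKM was summed per gene. Genes with at least 1 FPKM in at least 2 libraries were tested by limma with trend on log2(FPKM + 1), all 8 libraries in 1 fit with no covariate, and called at a Benjamini-Hochberg adjusted p under 0.05 and a log2 difference above 1 in size. Differences are on that scale and understate those of low genes. The p-values measure the spread between 2 replicates a group. The steps were tested on simulated data. Coverage against FPKM corresponds to 14.7 to 18.8 M fragments per RNA-seq library. The depth of the ATAC-seq libraries is unknown.

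Genes were named as those nearest to the 10 strongest regions, the 5 with the most regions, the 5 largest rises and falls within 20 kb, up to 3 with P3 beyond all other libraries in each direction, up to 3 a gene list and 3 markers. The rises and falls were taken only from genes whose E18.5 and P3 libraries did not overlap. The members, gene lists and tests were chosen with earlier results of these data known. Alternatives were other list lengths, overlaps, distances, windows, filters, pseudocounts, scalings, the replicate block and leaving out each library. Rat RNA-seq and H3K27ac HiChIP libraries of the series were not used here. Some of the named genes and sequences are not reported here.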

Additional observations from a re-analysis of the deposited data

How the results depend on the processing

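The number of P3-only regions followed list length. It was 8328 as reported, 3810 from the stronger 50% of every list and 517 with every list shortened to the shortest. It was 4291 with P3 replicate 1 shortened to the length of P3 replicate 2 and 3528 with both P3 lists shortened to the longest other list, alternatives chosen after seeing the data. Leaving out 1 library gave 8360 to 43164 regions. The share within 2.5 kb of a start was 20.7%, and 12.03% within 1 kb, 31.9% within 5 kb and 10.5% for starts of tested genes. With the lists shortened to the shortest, to the stronger 50% and (P3 lists, chosen after seeing the data) to the longest other list, it was 16.4, 23.1 and 17.9%. The AP1 share of 18.5% was 26.9% over whole regions, 21.5% around the summit, 21.3% for the stronger 50%, and 23.3% and 24.8% with P3 lists at the longest other length and all at the shortest, both chosen after seeing the data.

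The 683 nearest genes called between E18.5 and P3 became 1223 when the nearest gene was sought among tested genes, 205 within 2.5 kb and 380 for the stronger 50% of the lists, with other numbers of genes tested. As shares of those tested, 27.1% became 25.7, 26.1 and 27.1%, against 21.9% of all genes. For P1 to P3 the count of 1 became 2 among tested genes, and 0 without a filter on low values, with TPM, with the replicate block, with the time points compared alone, within 2.5 kb or for the stronger 50%. Leaving out 1 library gave 0 to 7. For P3 to P7 the count of 115 became 1 without a filter, where many genes at 0 entered the fit, 200 among tested genes, 35 within 2.5 kb and 69 for the stronger 50%, and 4 to 121 without 1 library. For P3 against the mean of the other times 53 became 93 with a pseudocount of 0.1, 5 without a filter, 99 with TPM, 88 among tested genes, 19 within 2.5 kb and 26 for the stronger 50%, and 2 to 70 without 1 library. With the other alternatives these counts stayed within 1.5 times. A fit of the compared time points alone was not made for the mean of 3.

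The replicate block gave 684, 0, 102 and 54 nearest genes in the 4 comparisons. Libraries that shared a number did not deviate together (correlations of deviations from the group means −0.0964 to 0.171 over the 6 pairs of times), so the numbers were taken not to pair samples. Of 43 tested genes named, none changed direction where called, 38 kept their side of the call for E18.5 to P3 in every alternative run, and Glis3, Tnnt2, Wt1, Itga8 and Itga2 did not. The 2 libraries per group, the unequal list lengths and the unknown ATAC-seq depth limit what can be said of absence at the other times.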
